A study of Homo sapiens with 7 samples.

Results

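NEDD4L, on chromosome 18, was examined for binding of HOXB13 acetylated at lysine 13 (HOXB13-K13ac) in C4-2B cells. The locus comprised every peak of the deposited lists that shared at least 1 bp with hg19 chr18:55660000-56110000, a window of 450.0 kb around the gene body at 55711619 to 56065389. Of the 148463 peaks in the 6 lists, 162 lay in this window. Replicate 1 contributed 55 of its 41303 peaks, replicate 2 contributed 50 of 45216 against input and 7 of 7506 against IgG, and replicate 3 contributed 3 of 18232 against input and 0 of 1 against IgG. One more list, called against input by its name, matches no library in the labels and contributed 47 of its 36205 peaks. The locus was selected on the number and spacing of peaks in these same lists, so its counts and densities are a description and carry no test.

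C4-2B is an established castration-resistant prostate cancer line derived from LNCaP, cultured here in serum stripped with charcoal to lower its steroid hormones. The 3 HOXB13-K13ac precipitations were set against 2 IgG precipitations, made with a non-specific antibody, and 2 inputs of unprecipitated chromatin. All 7 libraries share the cell line and the serum, and nothing in the labels says that the replicates came from separate cultures. The library titles begin with 2898 for replicate 1 and with 3047 for both other replicates. These numbers are called library series here, and what they stand for was not established. The lists give no read counts, so read depths are unknown. The control behind the replicate 1 list is not named, while the replicate 3 lists name theirs. Apart from this, the list names of replicates 1 and 3 differ by a single punctuation mark in the library's name. Nothing in the files measures expression, so the identity of the cells was taken from the labels.

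NEDD4L is a ubiquitin ligase of the HECT class. Its WW domains bind short proline-rich motifs of target proteins, and it is best known for marking the epithelial sodium channel for removal from the cell surface. It has also been tied to the turnover of SMAD proteins in TGF-beta signalling. HOXB13, a homeodomain protein of prostate epithelium, binds DNA with partners such as MEIS proteins. A super-enhancer is a stretch of closely spaced regulatory sites, and the series concerns such regions. Runs of sites are described here by spacing alone and are not super-enhancer calls.

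RefSeq lists 5 starts for NEDD4L on GRCh38.p14, all on the plus strand, and ATP8B1 and ALPK2 are the protein-coding genes on either side. The 250 bases before each start were searched on both strands for 7 short motifs. The letters CAATAAA and CTCGTAA, both of the kind HOXB13 binds, were in none of the 5, against 3.66% and 0.413% of the 35116 listed promoters. The same held for the FOX motifs TGTTTAC and TGTTTGC, with 2.98% and 3.23% of all promoters. The MEIS motif TGACAG was in 3 of the 5, against 13.0% of all promoters. The GATA motif AGATAA was in 2 (9.17% of all) and the AP-1 motif TGANTCA in 1 (6.57%). The 5 upstream sequences had a GC content of 41.2% to 50.8%, against a median of 58% over the listed promoters. The motif counts were not adjusted for base composition, and no excess was tested. The 3 upstream sequences with a MEIS match are shown because MEIS proteins bind with HOXB13, and capitals mark every match to the 7 motifs, none of which overlap here. They come from RefSeq on GRCh38.p14, plus strand, at chr18:58046976-58047225, chr18:58221321-58221570 and chr18:58255266-58255515. These positions cannot be set beside the peaks, which are on hg19, so no peak is assigned to any of these sequences.
NEDD4L start 1: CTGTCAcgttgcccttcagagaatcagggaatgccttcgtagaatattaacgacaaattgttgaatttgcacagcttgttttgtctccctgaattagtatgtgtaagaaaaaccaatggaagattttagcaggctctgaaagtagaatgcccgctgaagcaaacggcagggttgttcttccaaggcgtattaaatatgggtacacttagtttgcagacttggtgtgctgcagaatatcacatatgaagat
NEDD4L start 4: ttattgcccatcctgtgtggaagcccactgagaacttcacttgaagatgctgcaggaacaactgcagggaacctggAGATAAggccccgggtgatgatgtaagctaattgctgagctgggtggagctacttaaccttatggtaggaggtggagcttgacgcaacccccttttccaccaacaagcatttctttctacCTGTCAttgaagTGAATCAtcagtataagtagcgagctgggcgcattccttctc
NEDD4L start 5: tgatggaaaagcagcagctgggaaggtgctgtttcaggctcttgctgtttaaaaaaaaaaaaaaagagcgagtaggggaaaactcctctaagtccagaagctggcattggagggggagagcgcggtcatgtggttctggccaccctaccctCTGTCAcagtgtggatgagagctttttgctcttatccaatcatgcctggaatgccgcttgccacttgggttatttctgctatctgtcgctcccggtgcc
In these letters the MEIS match appears as CTGTCA, the same motif read on the other strand.

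Peaks were most frequent in the first part of the gene and its middle, with long empty stretches between them, and thinned out towards its end. Peaks of the 3 replicate lists that shared at least 1 bp were merged, which gave 62 regions in the window. Of these, 32 (51.6%, exact 95% binomial interval 38.6 to 64.5) held peaks of at least 2 libraries and are called replicated sites. Over all 65675 merged regions this share was 41.2%. Such intervals reflect counting error alone, and peaks next to each other are not independent. All 32 sites touched the gene body. The 150.6 kb between the gene start and the run held 13 sites by their midpoints, the 68.2 kb of the run held 16, and the 135.0 kb from the run to the gene end held 3.

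**Figure D1:**
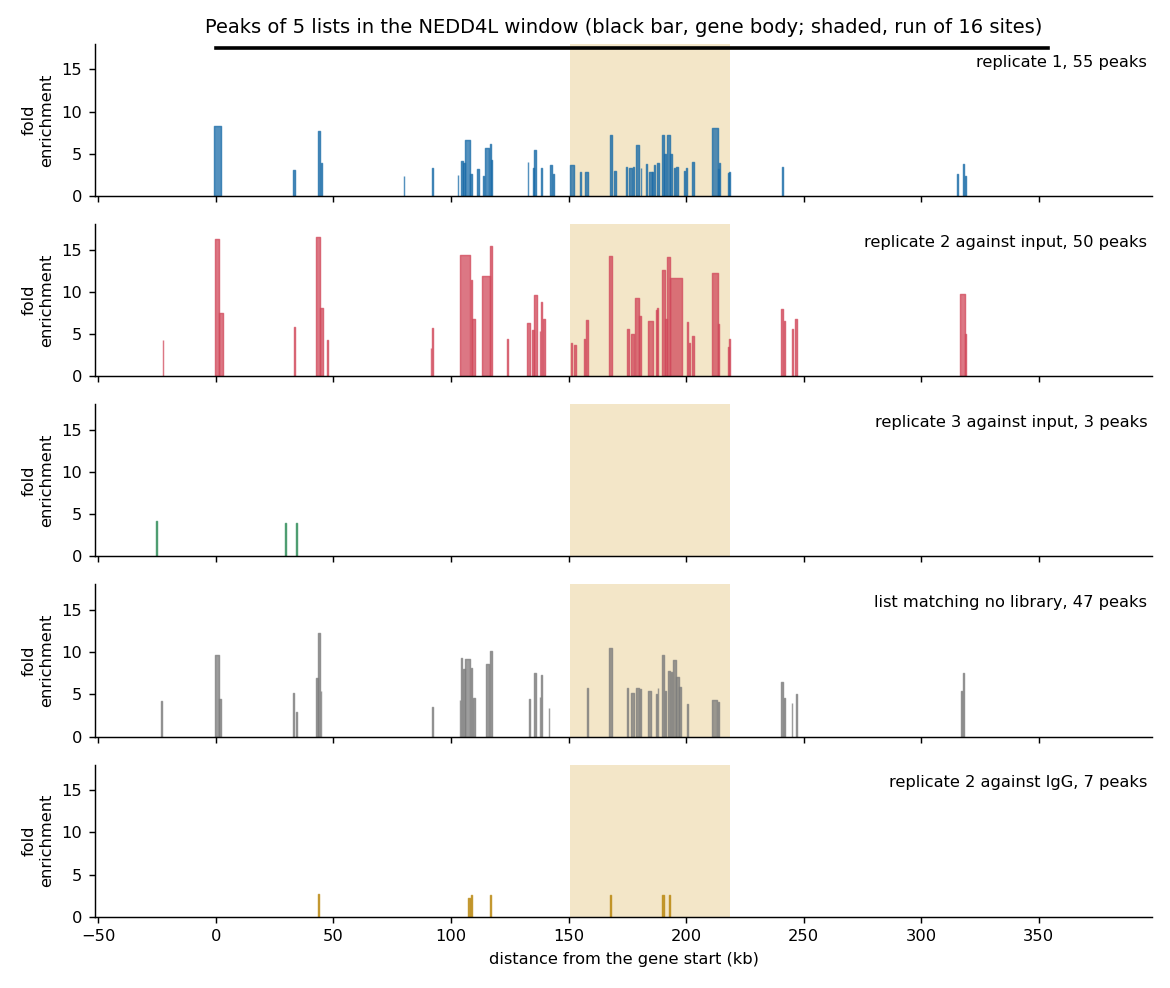
Peaks of 5 lists along the NEDD4L window, by distance from the gene start in kb (x axis) and the authors' fold enrichment at the summit (y axis), each bar spanning a peak's width. Replicates 1 and 2 and the list matching no library show 55, 50 and 47 peaks in similar places, while replicate 3 shows 3 peaks and none in the shaded run.

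Long stretches of the gene held no peak in any of the 6 lists. The longest within the gene ran for 68.3 kb, from 55958668 to 56026927. Another, of 32.3 kb, lay between 55759215 and 55791548. After the last site, which ended at 56030769, no list had a peak for the remaining 79.2 kb of the window. The replicated sites thus had a density of 71.1 per Mb over the window (exact 95% Poisson interval 48.6 to 100.4), against 6.42 per Mb over the span of peaks on chromosome 18. That is 11.1 times the density of the chromosome (7.57 to 15.6), for a window that was chosen for its density.

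A broad site covered the gene start as given on hg19. It spanned 55710997 to 55714483, which is -0.622 to 2.86 kb relative to the start. Its fold enrichment was 8.29 in replicate 1 and 16.3 in replicate 2, with a −log10 q of 32.7 and 34.4. No other site of the window had a higher value in replicate 1. The list matching no library reached 9.71 at this site, and neither replicate 3 nor the list of replicate 2 against IgG had a peak in it.

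Between the gene start and the run, the sites fell into 3 groups and a single site. The group nearest the start lay 32.7 to 45.4 kb into the gene and held 3 sites. One of these, at 55754370 to 55755923, had the highest fold enrichment of replicate 2 in the window, 16.4, with 7.76 in replicate 1. Its summits in the 2 lists were 4 bp apart. A lone site at 55803362 to 55804057 was weaker, at 3.38 in replicate 1 and 5.74 in replicate 2. The next group, 103.7 to 117.5 kb into the gene, held 4 sites. They reached 6.65 in replicate 1, at the site from 55815322 to 55819689, and 15.4 in replicate 2, at the site from 55828120 to 55829110. A last group of 4 sites, 132.5 to 138.9 kb into the gene, was lower, with at most 5.51 in replicate 1 and 9.67 in replicate 2.

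The run of 16 sites reached from 55862201 to 55930391, which is 150.6 to 218.8 kb into the gene and 19.3% of its length. A run joins sites that lie 10 kb apart or less. The nearest site before it, at 55849808 to 55850470, was 11.7 kb away, just over this limit, and the nearest after it was 21.6 kb away. Replicate 1 had 29 peaks in the run and replicate 2 had 23. The list matching no library had 19, replicate 2 against IgG had 3 and replicate 3 had none. The sites covered 25.7 kb, or 37.7% of the run, and the 15 gaps between them ranged from 46 to 8945 bp, with a median of 1903 bp. Only 4 gaps were longer than 5 kb.

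Strong sites lay between weaker ones along the run. At its near end, the site from 55862201 to 55863746 had a fold enrichment of 3.67 in replicate 1 and 3.96 in replicate 2. The next site, from 55868792 to 55869986, had 2.82 in replicate 1 and 6.70 in replicate 2. Both were among the weaker sites of the run in replicate 1. The site from 55878932 to 55880098 was the highest of the run in replicate 2, with 7.18 in replicate 1 and 14.2 in replicate 2. A broad pair of sites followed: 55887353 to 55889547 had 3.50 in replicate 1 and 5.04 in replicate 2, and 55889689 to 55892555 had 6.07 in replicate 1 and 9.29 in replicate 2.

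The middle of the run held strong sites next to each other. The sites from 55895489 to 55897519 and from 55899423 to 55900006 had 2.91 and 3.89 in replicate 1, and 6.52 and 8.12 in replicate 2. The site from 55901371 to 55903489 then had 7.19 in replicate 1 and 12.5 in replicate 2. Next to it, the site from 55903609 to 55904806 had 7.20 in replicate 1 and 14.1 in replicate 2. These values were close to those of the strongest site of the run. The adjoining site from 55904960 to 55909772 was the widest of the window at 4813 bp, a single peak in replicate 2 with a fold enrichment of 11.6. Replicate 1 had 3 separate peaks over the same stretch, the highest at 4.94, and the list matching no library had 4.

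The far end of the run held a single strong site. The sites from 55911691 to 55912389 and from 55914258 to 55915179 had 3.38 and 4.00 in replicate 1, and 6.47 and 4.80 in replicate 2. The site from 55922640 to 55925173 was the highest of the run in replicate 1, at 8.04, with 12.2 in replicate 2. In the list matching no library it reached only 4.35, below both replicates. The site from 55925220 to 55926119 had 3.93 in replicate 1 and 6.16 in replicate 2. The last sites, from 55929382 to 55929787 and from 55929874 to 55930391, had 2.73 and 2.81 in replicate 1, and 3.41 and 4.40 in replicate 2.

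**Figure D2:**
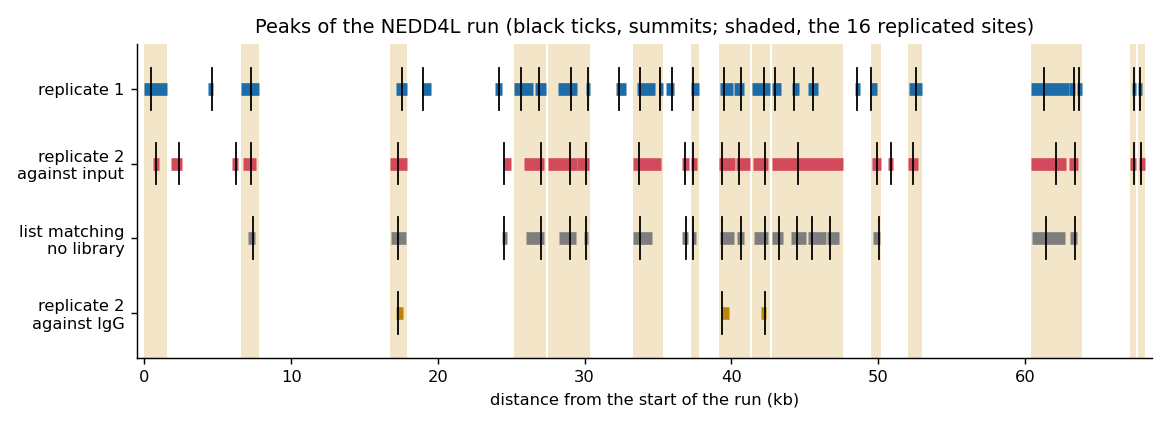
Peaks of 4 lists over the 68.2 kb of the NEDD4L run, by distance from its start in kb (x axis), with each bar spanning a peak and each tick its summit. The widest peak of replicate 2, of 4813 bp, lies over 3 peaks of replicate 1 and 4 of the list matching no library, and the 3 IgG peaks lie at 3 of the 16 shaded sites.

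Beyond the run, 3 sites remained. All 3 were below the median of the run's sites in replicate 1 (3.91), and 2 were above it in replicate 2 (6.61). The site from 55952007 to 55952896 had 3.40 in replicate 1 and 7.92 in replicate 2. The sites from 56028026 to 56030064 and from 56030288 to 56030769 lay more than 316 kb into the gene, with 3.81 and 2.35 in replicate 1, and 9.68 and 5.0 in replicate 2.

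At every one of the 32 sites the peaks came from replicates 1 and 2, as at 98.9% of all replicated sites. Of the replicate 1 peaks in the window, 43 of 55 (78.2%, 65.0 to 88.2) overlapped replicate 2, against 76.9% in the whole list. Of the replicate 2 peaks, 35 of 50 (70.0%, 55.4 to 82.1) shared sequence with replicate 1, against 62.9% in the whole list. Both shares were above those of the whole lists, in a window selected from these same lists, and the difference was not tested. Replicates 1 and 2 carry different library series numbers, so this overlap was between the 2 series. Within series 3047, replicates 2 and 3 shared no region in the window, and series 2898 has 1 HOXB13-K13ac precipitation only.

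Fold enrichment was lower in replicate 1 than in replicate 2 at all 32 sites. The median over the sites was 3.89 in replicate 1 (range 2.35 to 8.29) and 8.08 in replicate 2 (3.41 to 16.4). The ratio of replicate 1 to replicate 2 had a median of 0.51 (interquartile range 0.46 to 0.64), against 0.61 over the 26760 sites of both replicates, of which 23630 were lower in replicate 1. Each value refers to the control of its own list, and that of replicate 1 is not named, so the difference was not tested. The order of the sites was similar in both lists, with a Spearman's rho of 0.74 and a Pearson's r of 0.85 across the 32 sites. Over all sites of both replicates rho was 0.71 and r was 0.71. These are correlations across sites that share a pair of libraries, and sites are not independent replicates.

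**Figure D3:**
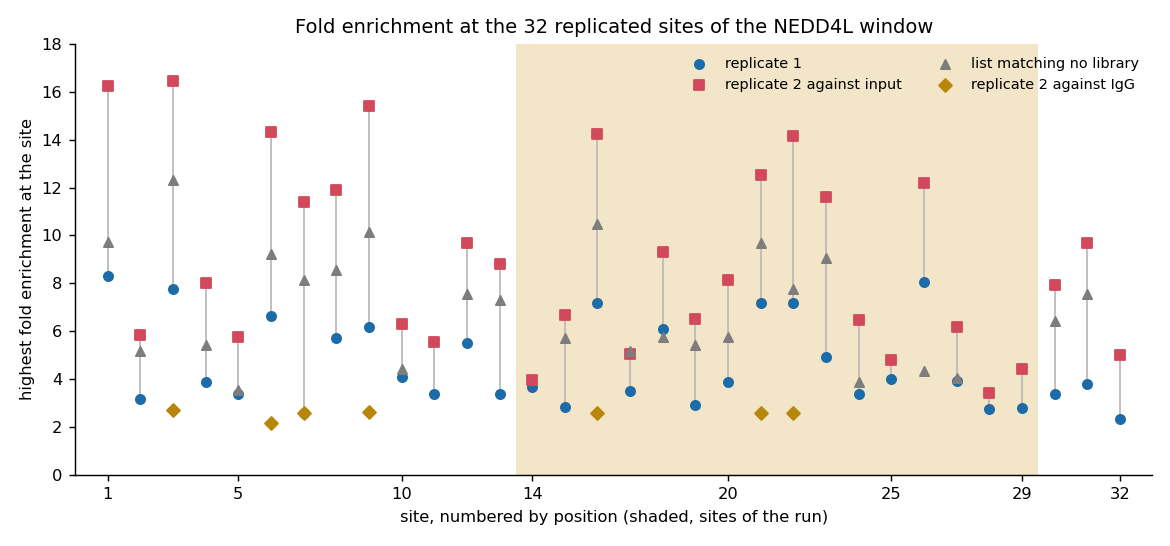
Highest fold enrichment (y axis) at each of the 32 replicated sites in order of position (x axis), with lines joining replicate 1 to replicate 2. Replicate 1 lies below replicate 2 at every site, and the 7 values over IgG, a different control, lie between 2.17 and 2.69.

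By the median, the highest summits of replicates 1 and 2 lay further apart here than over all sites of both replicates. Summits of replicates 1 and 2 were at most 100 bp apart at 15 of the 32 sites (46.9%), against 57.9% of all sites of both replicates. The median distance was 130 bp, against 80 bp over all sites. The largest distances were 3114 bp at the site from 55815322 and 1588 bp at the site from 55904960, and each of these was a single wide peak in replicate 2 and 3 peaks in replicate 1.

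Replicate 3 had few peaks in the window and none at the replicated sites. Its 3 peaks in the window lay at 55686141 to 55686364, which is before the gene, and at 55741007 to 55741233 and 55745845 to 55745991. Their fold enrichments were 4.19, 3.99 and 3.92, and their −log10 q values 1.96, 1.72 and 1.66. Between 23.4% and 35.4% of the peaks of the replicate 3 list had a lower fold enrichment. None of the 3 shared sequence with replicate 1 or 2, against 30.8% of the whole list, and 1 met a peak of the list matching no library. None of the 32 sites was present in all 3 libraries (upper limit of the exact interval 10.9%), against 17.0% of all replicated sites. Over the window replicate 3 had 6.67 peaks per Mb (1.37 to 19.5), against 5.39 per Mb over chromosome 18. Whether its depth or its enrichment set these counts was not tested.

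Calls against IgG were about as frequent at these sites as at all replicated sites. Replicate 2 had 7 peaks over IgG in the window, each at a different site, so 7 of 32 sites (21.9%, 9.28 to 40.0) were called, against 23.2% of all replicated sites. All 7 had a −log10 q of 0. At a q of 0.05 or less, 0 of 32 sites were called (upper limit of the exact interval 10.9%), against 5.55% of all replicated sites, and 0 of 7 IgG peaks reached it, against 21.5% of the whole list. Of these 7 sites, 3 lay in the run (from 55878932, 55901371 and 55903609) and 4 between the gene start and the run (from 55754370, 55815322, 55819884 and 55828120).

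Fold enrichments over input and over IgG are not on one scale and are given side by side. Fold enrichment over IgG at the 7 peaks had a median of 2.58 (range 2.17 to 2.69), against 3.10 for the whole IgG list. At the peak from 55755172 to 55755620, replicate 2 reached 16.4 over input and 2.69 over IgG. At the peak from 55879369 to 55879811, it reached 14.2 over input and 2.58 over IgG. In replicate 2, the fold enrichment over input had a median of 14.2 at the 7 sites with an IgG call (11.4 to 16.4) and 6.52 at the other 25 (3.41 to 16.3). Over all replicated sites, these medians were 18.7 at the 6263 with an IgG call and 7.89 at the 20783 without. Among the window's 25 was the site at the gene start, although only 1 window site was higher over input in replicate 2. No IgG list of replicate 1 was analysed here.

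By strength, the window's peaks lay low in the list of replicate 1 and near the middle of that of replicate 2. None of the window's peaks was in the 10% of its list with the highest −log10 p. The best ranked 9520th of 41303 by p in replicate 1 and 5630th of 45216 in replicate 2. The median fold enrichment was 3.48 in the window's replicate 1 peaks, against 4.67 in the whole list, and 13 of 55 peaks were above that list median. In replicate 2 the median was 6.73 in the window, against 6.50 in the whole list, with 28 of 50 peaks above it. In replicate 1, 38 of 55 peaks had a −log10 q of 5 or more (69.1%, against 80.7% of the list), and in replicate 2, 38 of 50 (76.0%, against 67.2%). In the list matching no library this held for 36 of 47 (76.6%, against 72.7%), and in replicate 3 for 0 of 3 (against 6.28%).

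**Figure D4:**
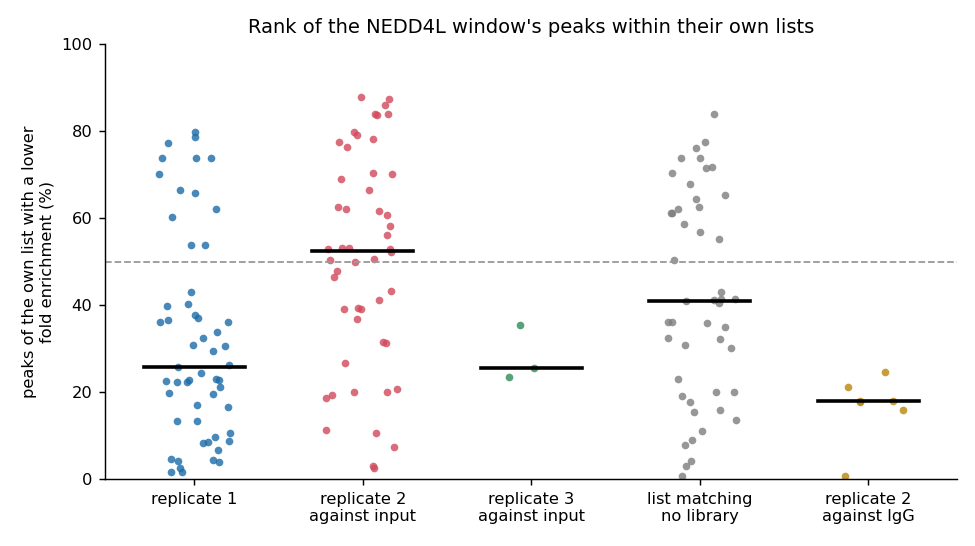
Share of each list's peaks with a lower fold enrichment (y axis, percent) for the window's peaks in 5 lists (x axis), with a black bar at the median and a dashed line at 50%. The medians are 25.9% in replicate 1, 52.5% in replicate 2 and 41.0% in the list matching no library, and no peak of the window lies above 87.8%.

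Median widths of the window's peaks were above those of their lists, except in replicate 3, which had 3 peaks. The median was 574 bp in replicate 1, against 555 bp in its list, and 756.5 bp in replicate 2, against 635 bp. It was 638 bp in the list matching no library (list median 588 bp) and 443 bp in the replicate 2 peaks over IgG (list median 427 bp). In replicate 3 it was 224 bp, against 235 bp. No difference in width was tested. Peaks wider than 2 kb were 3 of 55 in replicate 1, against 2.86% of its whole list. They were 5 of 50 in replicate 2, against 5.62%, and 1 of 47 in the list matching no library, against 3.02%. On these few peaks, the share was above that of the list in replicates 1 and 2 and below it in the list matching no library. The stretch from about 55922640 to 55925173 exceeded 2 kb in all 3 of these lists. The widest, of 4813 and 4284 bp, were wider than 99.8% and 99.7% of the replicate 2 list.

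The regions of a single library were weaker. There were 12 of replicate 1 alone, with a median fold enrichment of 3.03 (2.43 to 3.76), and 15 of replicate 2 alone, with 5.36 (3.38 to 7.87). Of these, 6 of replicate 1 and 5 of replicate 2 lay inside the run. The list matching no library had a peak in 1 of the 12, against 4.86% of all regions of replicate 1 alone, and in 7 of the 15, against 29.5% of all regions of replicate 2 alone.

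The list matching no library followed the replicated sites. It had a peak at 26 of the 32 (81.2%), against 86.9% of all replicated sites, and 2 of its 47 peaks (4.26%) met no replicate list, against 4.70% of the whole list. Its fold enrichment at the 26 sites ranged from 3.56 to 12.3, with the highest value at the site from 55754370, where replicate 2 was also highest. The 4 sites of the run that it missed, from 55862201, 55914258, 55929382 and 55929874, had 2.73 to 4.00 in replicate 1 and 3.41 to 4.80 in replicate 2.

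Set beside the other runs of the genome, the NEDD4L run had many sites of modest strength. Among 6073 runs of at least 2 sites, 5 had more than 16 sites and 8, the NEDD4L run included, had 16 or more. The 10 runs with the most sites were compared as a description, with no test. The highest fold enrichment of the NEDD4L run was 8.04 in replicate 1, against 10.1 to 24.3 in the other 9, and 14.2 in replicate 2, against 25.1 to 38.7. In both lists it was the lowest of the 10. The median over sites was not: 3.91 in replicate 1, against 3.67 to 9.60, and 6.61 in replicate 2, against 6.08 to 17.9, with 2 of the other 9 runs lower in each. The NEDD4L run and 3 of the other 9 had no replicate 3 peak. At a q of 0.05 or less, it had 0 sites called against IgG, while 8 of the other 9 had 1 to 3.

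**Figure D5:**
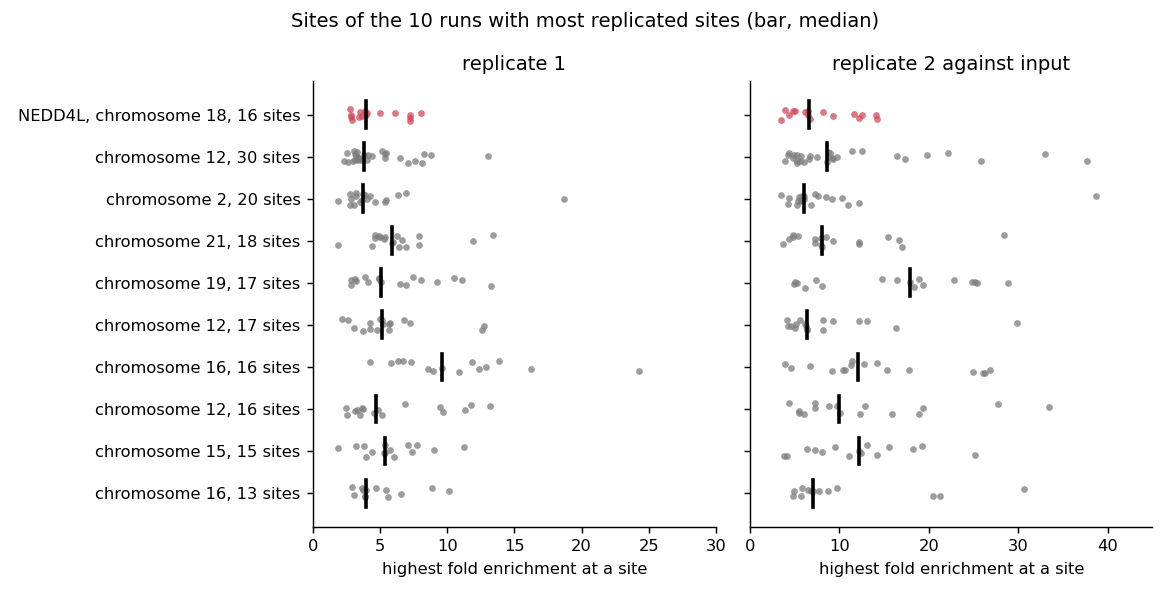
Highest fold enrichment at each site (x axis, points) of the 10 runs with the most replicated sites (rows), in replicate 1 and in replicate 2 against input, with a bar at the median. The NEDD4L run, in the top row, ends at 8.04 and 14.2, below the highest site of each of the other 9 runs.

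On chromosome 18 no other run came near it in number of sites. The next in number lay from 12588560 to 12609441 and from 499710 to 517109, with 6 sites each, and from 56717829 to 56747169, with 5. A further run of the chromosome also had 5 sites. The NEDD4L run was longer, at 68.2 kb, against 20.9, 17.4 and 29.3 kb. Its median fold enrichment in replicate 2 was 6.61, against 10.2, 9.84 and 22.5 in these 3 runs. In replicate 1 it was 3.91, against 3.50, 4.12 and 6.63.

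The last peaks before the window ended 8.73 kb outside in replicate 1 and 8.63 kb outside in replicate 2, with fold enrichments of 4.15 and 10.8. The first peaks after it began 33.1 kb outside in both, with 2.52 in replicate 1 and 5.69 in replicate 2. The outermost peaks in the window lay well inside its ends. The first had 8.29 in replicate 1, at the gene start, and 4.31 in replicate 2, before the gene, and the last had 2.35 in replicate 1 and 5.0 in replicate 2.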

How the data were processed

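ChIP-seq peak lists of 3 HOXB13-K13ac libraries were used, tied to them by the spelling in the labels, and 1 list that matches none. The submitters' processing notes name the tools MACS2, Bowtie2, BWA and CASAVA 1.4, and the builds hg19 and GRCh37. The threshold, filters and pooling of the calls were not given in the sources used here. Each peak has a fold enrichment (a ratio) and a −log10 p and −log10 q, all as deposited by the authors. No read counts are given, so depth is unknown and no precision can be derived from it. Lists against input or IgG have different backgrounds, so their values are not on one scale.

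Peaks were merged in pandas 2.3.3 and NumPy 2.4.6, and intervals came from SciPy 1.17.1, under Python 3.11.15. Sites needed peaks of 2 libraries sharing 1 bp, and runs joined sites at most 10 kb apart. A site's fold enrichment in a list is the highest among its peaks. The code was tested on simulated lists. The rule for named sites took all sites of the run, the highest peak of each list, the site at the gene start and sites of all 3 libraries or with an IgG call of q 0.05 or less, of which there were none. It also took the 10 runs of the genome with most sites and the next 3 of chromosome 18, with ties going to the longer run. All other sites and peaks named were chosen after their values were seen. The members, lists and tests were chosen with earlier results of these data known. No test between groups was made. The planned motif search at summits was not run, as no hg19 genome was used here, and exons and introns were not used. Motifs were searched instead in RefSeq promoters, a step added after the files were seen. A further motif of the plan is not reported here. Alternatives changed the overlap rule, the thresholds, the stitching distance, the window and the libraries used.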

Additional observations from a re-analysis of the deposited data

Results flagged for a closer look

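One HOXB13-K13ac list matches no library and so was outside the comparison of replicates, yet it had 47 peaks in the NEDD4L window. By its name it was called against input, and none of the lists against IgG carries the same name. Of the 47, 43 (91.5%, 79.6 to 97.6) shared sequence with replicate 2 and 32 (68.1%, 52.9 to 80.9) with replicate 1. Shares of this kind over the whole list were not computed, so neither is read as a trait of the window. The list had a peak at 26 of the 32 replicated sites (81.2%, 63.6 to 92.8), against 86.9% of all replicated sites. At 23 of these 26 its fold enrichment lay between those of replicates 1 and 2, at 2 it was below both and at 1 above both. The same count over all replicated sites was not made. Over the whole lists, the median fold enrichment of this list, 6.39, also lay between 4.67 in replicate 1 and 6.50 in replicate 2. The 6 sites without a peak of this list had at most 4.00 in replicate 1 and 5.54 in replicate 2. In the run, 12 of 16 sites held a peak of this list.

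Of the 47, 2 peaks (4.26%, 0.520 to 14.5) met none of the 3 replicate lists, against 4.70% of the whole list. They lay at 55688364 to 55688678, before the gene, and at 55853200 to 55853389, with fold enrichments of 4.19 and 3.43. The first was 254 bp from a replicate 2 peak and the second 382 bp from a replicate 1 peak. Which library this list came from was not tested here.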

How the results depend on the processing

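Depth is unknown, 1 list has no library and replicate 1 has an unnamed control, so the lists' lengths and fold scales cannot be compared. No paired analysis was possible because peak lists give no test between groups. Among 69 recomputed values, 40 stayed within 1.5 times, the interval or 1 SD of the reported one, and 29 did not. The 32 sites became 16 with summits within 100 bp and 12 with lists of equal length. Leaving out each replicate gave 0 to 32 sites, runs of 0 to 16 sites and 0 to 68.2 kb, and 0 to 11.2 times the density of the chromosome. The 0 values came without replicate 1 and without replicate 2, and without replicate 3 the 32 sites and 16 run sites remained in number. These counts were fixed in advance, because all 32 sites held peaks of replicates 1 and 2 only. They are included in the 69 values. The run of 16 sites and 68.2 kb was the least stable. It held 4 sites over 15.1 kb with summits within 100 bp, 8 over 33.5 kb with peaks of −log10 q 5 or more and 5 over 30.8 kb with lists of equal length. Stitching within 5 kb gave 9 sites over 27.8 kb, and within 20 kb 25 over 127 kb. With the unmatched list added and sites in at least 3 lists, a setting chosen after seeing the data, the run was 43.6 kb long with 11 sites. With that list in place of replicate 3, sites in all 3 lists used numbered 27 rather than 0. As the list matches no library, it may not be a separate replicate. The share called against IgG was 50% with lists of equal length and 0% when IgG peaks had to reach a q of 0.05. Lists of equal length left 13 peaks of replicate 1 and 20 of replicate 2, with median fold enrichments of 6.65 and 11.5. With −log10 q 5 or more, 0 replicate 3 peaks were left. The cause of these moves was not tested.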
